A study of Mus musculus with 23 samples.

Results

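Heat shock proteins and the chaperones of the glucocorticoid receptor (GR) were followed in quadriceps muscle of male and female mice treated with corticosterone. The 10 genes were taken from a list of mouse symbols and matched to the 55573 Ensembl gene IDs of the count matrix. They are Hsp90aa1, Hsp90ab1, Hspa8, Hspa1b, Hspb1, Hspb7, Cryab, Fkbp4, Ptges3 and Stip1, and all 10 had enough reads to be tested. RNA of the quadriceps of 23 C57Bl6 mice aged 8 to 10 weeks was sequenced, to compare the response to corticosterone between the sexes. There were 6 male and 6 female mice with vehicle (a subcutaneous cholesterol pellet), and 6 male and 5 female mice with corticosterone (a slow-release pellet of 50 mg corticosterone and 50 mg cholesterol). The pellets were in place for 14 days, and mice were fasted for 5 hours before tissue was collected. Mice are named by sex and number (M1, F1), with odd numbers for vehicle and even numbers for corticosterone.

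Heat shock proteins are chaperones that hold unfolded proteins and help them fold. In the cytosol, a GR molecule without hormone is first bound by HSP70 and HSP40, passed by the adaptor HOP to HSP90, and then held ready for hormone by HSP90 with p23 and an immunophilin such as FKBP52 or FKBP51. Muscle fibers also hold large amounts of small heat shock proteins, which bind to the contractile filaments and to the Z-disc. Genes of the inducible chaperones are switched on by heat shock factor 1, which binds inverted repeats of the bases GAA upstream of them.

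Such repeats were looked for in the promoters, since the 10 genes include both inducible and constitutive chaperones. RefSeq start-site windows on GRCm38.p6, from 250 bases before to 50 bases after the start, were at hand for 6 of the 10 genes. The pair GAANNTTC occurred in the windows of Hspa1b, Hspb1 (2 times) and Fkbp4. The other pair, TTCNNGAA, occurred in none of the 6, and the windows of Hspb7, Ptges3 and Stip1 held neither. Both motifs read the same on either strand, and 15.1% of 32851 windows of the same length held at least 1 of them. The stretches around the matches are shown in the direction of transcription, with the matched bases in capitals, at chr17:34959320-34959357 (minus strand) for Hspa1b, chr5:135887787-135887844 (plus strand) for Hspb1 and chr6:128438785-128438822 (minus strand) for Fkbp4.
Hspa1b: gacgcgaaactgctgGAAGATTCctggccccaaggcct
Hspb1: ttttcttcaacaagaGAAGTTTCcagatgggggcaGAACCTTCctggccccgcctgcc
Fkbp4: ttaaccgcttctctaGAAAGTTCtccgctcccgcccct
The first matched base lay 104 bases before the start site in Hspa1b, 117 and 97 bases before it in Hspb1, and 151 bases before it in Fkbp4. The 38 bases printed for Hspa1b were also found upstream of its neighbour Hspa1a.

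Counts on genes were 20904150 to 21984477 per mouse, and levels are given as CPM, counts relative to the library total after TMM scaling. The 11 markers of muscle fibers were present in every mouse, with summed levels of 112752 to 292320 CPM. Markers of other cells differed widely between mice. The 8 slow fiber markers summed to between 58.1 CPM (M8) and 6454 CPM (F3), and they spread widely within every group. The lowest corticosterone-treated female had 205 CPM (F4), against lowest values of 58.1 to 64.6 CPM in the 3 other groups. The 8 adipocyte markers reached 7431 CPM in F6 and stayed between 239 and 2702 CPM in the 3 other groups, with Lep at 0 in at least 1 vehicle-treated female. The 8 hepatocyte markers reached 2463 CPM in M8 and 2379 CPM in F10, against medians of 109 to 203 CPM in the 4 groups. In whole muscle, a different share of cells of a type and a different RNA content per cell cannot be told apart.

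In edgeR, different genes of the 10 passed the threshold after corticosterone in each sex. In males, 2 of 10 genes were significantly higher after corticosterone, the constitutive HSP90 gene Hsp90ab1 and the immunophilin gene Fkbp4, and none was lower. In females, 4 of 10 genes were significantly higher, the inducible genes Hsp90aa1 and Hspa1b and the small heat shock proteins Hspb1 and Cryab, and none was lower. Significance here means an adjusted p under 0.01 in edgeR's quasi-likelihood test, adjusted over all 13049 genes tested. DESeq2 and limma-voom each called 3 of 10 genes in males, the third being Cryab, which was thus called in both sexes by these tools. Of all 13049 genes, DESeq2 called 2044 higher in males and limma-voom 2060. Among all tested genes, 13.2% were higher in males by the edgeR rule and 7.40% in females, so that the male count lay near the share of all genes. The 10 genes were chosen with earlier results of these data known, so a count above such a share is not a test of the set. The median log2 fold change (log2FC) of the 10 genes was 0.33 in males and 0.73 in females, beside -0.02 and 0.04 over all tested genes. All corticosterone-treated mice lay above all vehicle-treated mice for 2 of 10 genes in males (10.8% of all tested genes) and for 2 of 10 in females (3.38%).

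**Figure D1:**
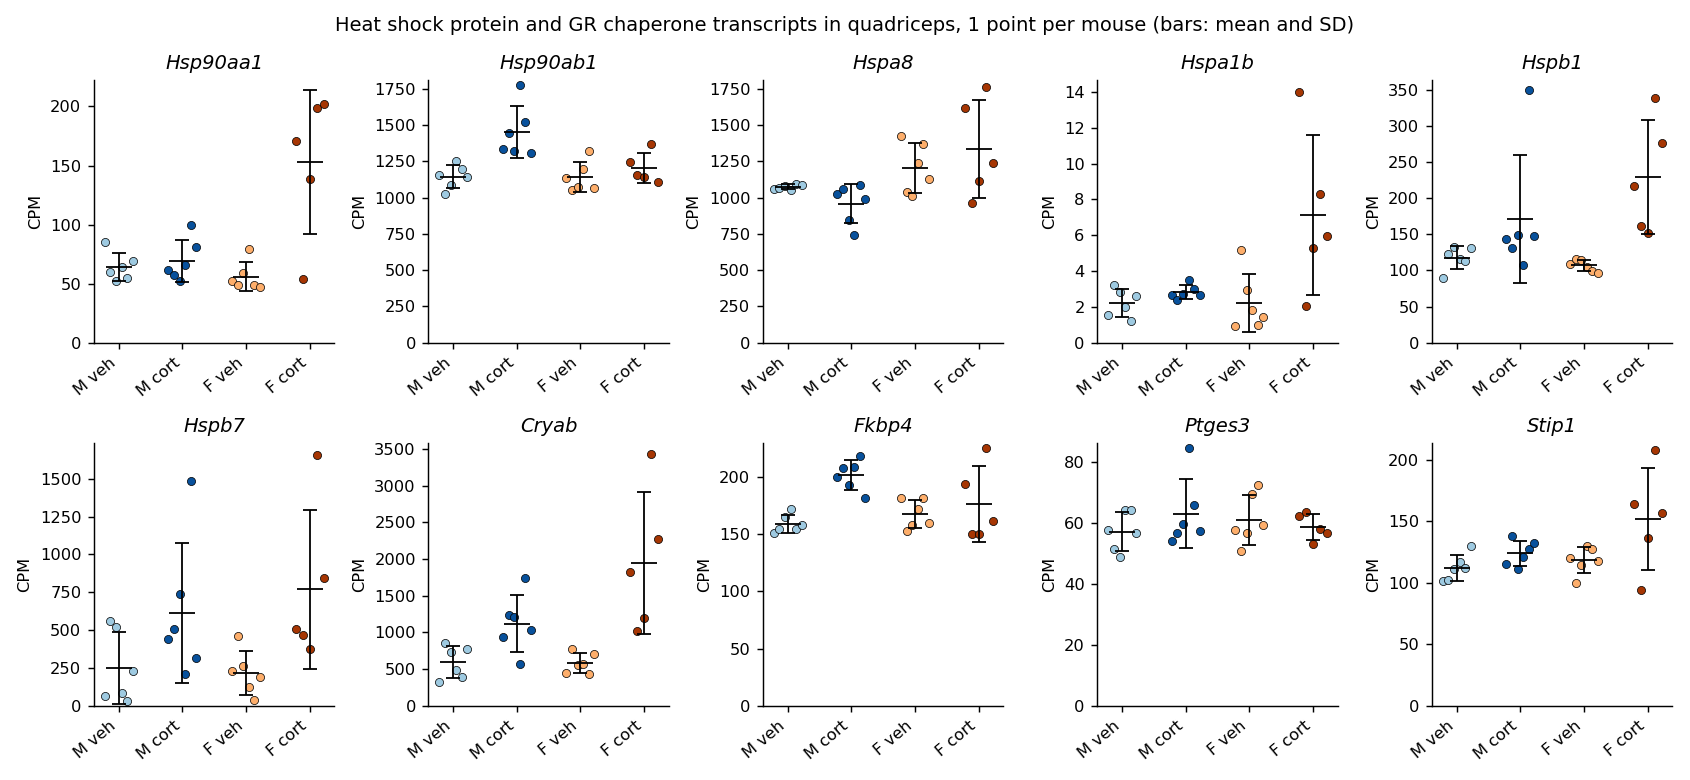
CPM (y axis, from 0) of the 10 genes in each of 23 mice by sex and treatment (x axis: M and F, veh for vehicle, cort for corticosterone), with the mean as a horizontal line and the SD as bars. Hsp90aa1, Hspa1b, Hspb1 and Cryab reach their highest group mean in corticosterone-treated females, while Hsp90ab1 and Fkbp4 separate the treatments in males.

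HSP90 binds GR directly and opens its hormone pocket. Hsp90aa1 (ENSMUSG00000021270, chr12:110690605-110702728, minus strand), the stress-inducible cytosolic form, measured 171 (F2), 53.7 (F4), 139 (F6), 199 (F8) and 202 CPM (F10) in corticosterone-treated females. In vehicle-treated females it ranged from 46.8 to 79.2 CPM, with a median of 50.8. Thus 4 of 5 corticosterone-treated females lay above every vehicle-treated female, and F4 lay within their range. Expression rose 2.74-fold in females (log2FC 1.45, SE 0.24, edgeR adjusted p = 0.000259). In males Hsp90aa1 ranged from 52.1 to 85.1 CPM with vehicle (median 61.9) and from 52.1 to 100 CPM with corticosterone (median 63.5), and the groups overlapped. The male log2FC was 0.12 (SE 0.23, edgeR adjusted p = 0.714), and 2 SE on either side span 0.787-fold to 1.5-fold.

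The constitutive form passed the threshold in males and not in females. Hsp90ab1 (ENSMUSG00000023944, chr17:45567775-45573271, minus strand) ranged from 1025 to 1254 CPM in males with vehicle, with a median of 1151, and from 1309 to 1775 CPM in males with corticosterone, with a median of 1389, and the groups did not overlap. The rise in males was 1.27-fold (log2FC 0.34, SE 0.09, edgeR adjusted p = 0.00405). The highest of these males was M8, the mouse with the most hepatocyte transcripts. M12, with hepatocyte markers of 1439 CPM, had the lowest Hsp90ab1 of these males. Over the 23 mice, with group means subtracted, Hsp90ab1 had a correlation of 0.16 with the hepatocyte markers (a description). The part of these markers in the male result was not tested. Without M8 the log2FC was 0.28 with an edgeR adjusted p of 0.0129. The call was also lost without M3 (log2FC 0.31, edgeR adjusted p = 0.012). Female levels were 1053 to 1321 CPM with vehicle, and 1249 (F2), 1160 (F4), 1145 (F6), 1368 (F8) and 1110 CPM (F10) with corticosterone. These groups overlapped, with a log2FC of 0.08 (SE 0.09, edgeR adjusted p = 0.558).

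Since the genes differ in length, the balance of the 2 forms was computed on CPM per kilobase of exon. The ratio of Hsp90aa1 to Hsp90ab1 was 0.0281 to 0.056 in the vehicle-treated mice of both sexes and 0.0282 to 0.0503 in corticosterone-treated males. Among corticosterone-treated females, the ratio was 0.139 (F10), 0.111 (F8), 0.104 (F2), 0.0928 (F6) and 0.0353 (F4). Hence 4 of 5 corticosterone-treated females had a ratio above that of all 18 other mice. Hsp90ab1 still made up most of the sum of both forms, which had group medians of 404 and 478 CPM per kilobase in vehicle- and corticosterone-treated males and 383 and 422 in females. Of the 100-base stretches of Hsp90aa1 transcripts, 38% also occur in other genes, chiefly the pseudogene Gm12346, so that part of its read pairs may not have been counted, while no stretch of Hsp90ab1 is shared.

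**Figure D2:**
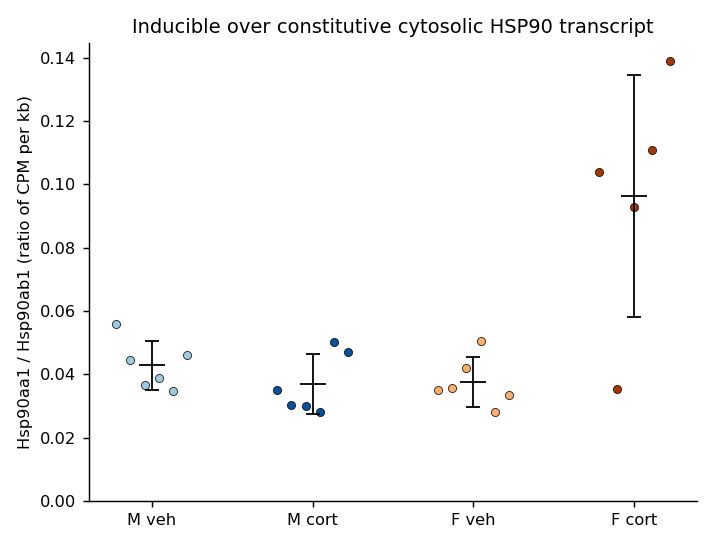
Ratio of Hsp90aa1 to Hsp90ab1 (y axis, from 0, ratio of CPM per kilobase of exon) in each mouse by sex and treatment (x axis), with the mean as a horizontal line and the SD as bars. F2, F6, F8 and F10 lie between 0.0928 and 0.139, and F4 lies at 0.0353 among the other groups.

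HSP70 binds GR before HSP90 does. Its constitutive form Hspa8 (ENSMUSG00000015656, chr9:40800984-40810087, plus strand) passed the threshold in neither sex. It ranged from 1055 to 1097 CPM in vehicle-treated males and from 743 (M8) to 1087 CPM in corticosterone-treated males, with medians of 1074 and 1008 CPM. Vehicle-treated females ranged from 1008 to 1424 CPM, and corticosterone-treated females measured 1615 (F2), 963 (F4), 1111 (F6), 1760 (F8) and 1239 CPM (F10). The groups overlapped in both sexes, with log2FC values of -0.16 (SE 0.13, edgeR adjusted p = 0.339) in males and 0.15 (SE 0.14, edgeR adjusted p = 0.436) in females. Vehicle-treated males had the narrowest spread seen for any of the 10 genes in any group, with an SD of 1.55% of the mean.

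The inducible HSP70 gene Hspa1b (ENSMUSG00000090877, chr17:34956436-34959238, minus strand) was the least abundant of the 10, and changed in females. Corticosterone-treated females measured 14 (F2), 2.02 (F4), 5.29 (F6), 8.32 (F8) and 5.96 CPM (F10), and vehicle-treated females 0.927 to 5.15 CPM with a median of 1.63. Again 4 of 5 treated females lay above every vehicle-treated female, and F4 did not. The rise was 3.21-fold (log2FC 1.68, SE 0.41, edgeR adjusted p = 0.005), and it lost significance without F2 (log2FC 1.28, edgeR adjusted p = 0.0272) and without F1, F7, F9 or F11 (adjusted p of 0.0132 to 0.0135). It was also lost with each sex fitted alone (edgeR adjusted p = 0.05), with an adipocyte covariate (log2FC 1.48, edgeR adjusted p = 0.0228), without M8 and F10 (0.0109) and without F6 and F10 (0.0154), and thus in 9 of 33 alternative analyses. Males ranged from 1.22 to 3.22 CPM with vehicle and from 2.38 to 3.49 CPM with corticosterone (log2FC 0.33, SE 0.40, edgeR adjusted p = 0.542). Hspa1b shares 49.9% of its 100-base stretches with other genes, mainly Hspa1a, so the levels of these 2 genes are uncertain.

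Small heat shock proteins keep desmin, actin and titin from aggregating in stressed muscle. Cryab, the alpha B-crystallin gene (ENSMUSG00000032060, chr9:50751325-50756636, plus strand), measured 1822 (F2), 1023 (F4), 1193 (F6), 3426 (F8) and 2272 CPM (F10) in corticosterone-treated females. Vehicle-treated females ranged from 433 to 765 CPM with a median of 560, so that the groups did not overlap. Cryab rose 3.37-fold in females (log2FC 1.75, SE 0.31, edgeR adjusted p = 0.000439). In males it ranged from 320 to 855 CPM with vehicle (median 613) and from 566 (M8) to 1738 CPM (M10) with corticosterone (median 1120). All treated males but M8 lay above every vehicle-treated male. The male log2FC of 0.91 (SE 0.30) had an edgeR adjusted p of 0.0179, which became 0.00785 without M8. It passed in DESeq2 (log2FC 0.92, adjusted p = 0.00558) and in limma-voom (log2FC 1.0, adjusted p = 0.00163). Cryab overlaps Hspb2 on the opposite strand, and the authors counted read pairs by strand.

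Hspb1 (HSP27, ENSMUSG00000004951, chr5:135887919-135889563, plus strand) was also higher in females. It measured 217 (F2), 162 (F4), 151 (F6), 338 (F8) and 276 CPM (F10) in corticosterone-treated females, all above the 96.1 to 116 CPM of vehicle-treated females. The rise was 2.14-fold (log2FC 1.10, SE 0.24, edgeR adjusted p = 0.00205). Males ranged from 90.0 to 133 CPM with vehicle (median 120) and from 108 to 350 CPM with corticosterone (median 145), and M10 stood far above the others at 350 CPM. The male log2FC of 0.54 (SE 0.23) did not pass the threshold (edgeR adjusted p = 0.0631), and without M10 it was 0.20 (SE 0.16, edgeR adjusted p = 0.337). For Hspb1, 44% of the 100-base stretches are shared, mainly with the pseudogene Hsp25-ps1.

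Hspb7, a small heat shock protein of heart and muscle that binds filamin C (ENSMUSG00000006221, chr4:141420779-141425311, plus strand), had the highest SD relative to the mean of the 10 genes in 3 of the 4 groups (95.7% and 75.2% in vehicle- and corticosterone-treated males, 68.3% in corticosterone-treated females). In vehicle-treated females it had 66.1%, below the 73.2% of Hspa1b. Vehicle-treated males ranged from 28.7 to 561 CPM (median 156) and corticosterone-treated males from 207 to 1484 CPM (median 472). Vehicle-treated females ranged from 39.3 to 459 CPM (median 209), and corticosterone-treated females measured 506 (F2), 467 (F4), 376 (F6), 1655 (F8) and 845 CPM (F10). The groups overlapped in both sexes. The log2FC was 1.31 in males (SE 0.65, edgeR adjusted p = 0.115) and 1.83 in females (SE 0.68, edgeR adjusted p = 0.0512), and neither passed the threshold.

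The small heat shock proteins moved with the slow fiber markers from mouse to mouse. After the mean of each group was subtracted, log2 levels of Hspb7, Hspa1b, Cryab and Hspb1 had Pearson correlations of 0.81, 0.70, 0.66 and 0.51 with the summed slow fiber markers over 23 mice, while Fkbp4 had 0.05 and Hsp90aa1 0.11. Ptges3 and Hsp90ab1 ran the other way, with -0.54 and -0.43. The points share library and scaling, and these values are a description. Slow fiber markers had medians of 118 CPM in males with either treatment, 182 CPM in vehicle-treated females and 1575 CPM in corticosterone-treated females. Within corticosterone-treated females they were 3537 (F2), 205 (F4), 341 (F6), 1937 (F8) and 1575 CPM (F10), and none of the 8 markers was at 0 in any mouse. With the slow fiber score of each mouse as a covariate, Cryab in females had a log2FC of 1.52 (edgeR adjusted p = 0.000217), and Hspb7 in males passed the threshold at 1.84 (edgeR adjusted p = 0.000751), as did Cryab in males at 0.97 (edgeR adjusted p = 0.00175). F8, which had the highest Cryab, Hspb1 and Hspb7 of the treated females, had their lowest summed adipocyte markers (306 CPM). Over the 23 mice, the correlations of these genes with the adipocyte markers were weak, at -0.24, -0.29 and -0.10.

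**Figure D3:**
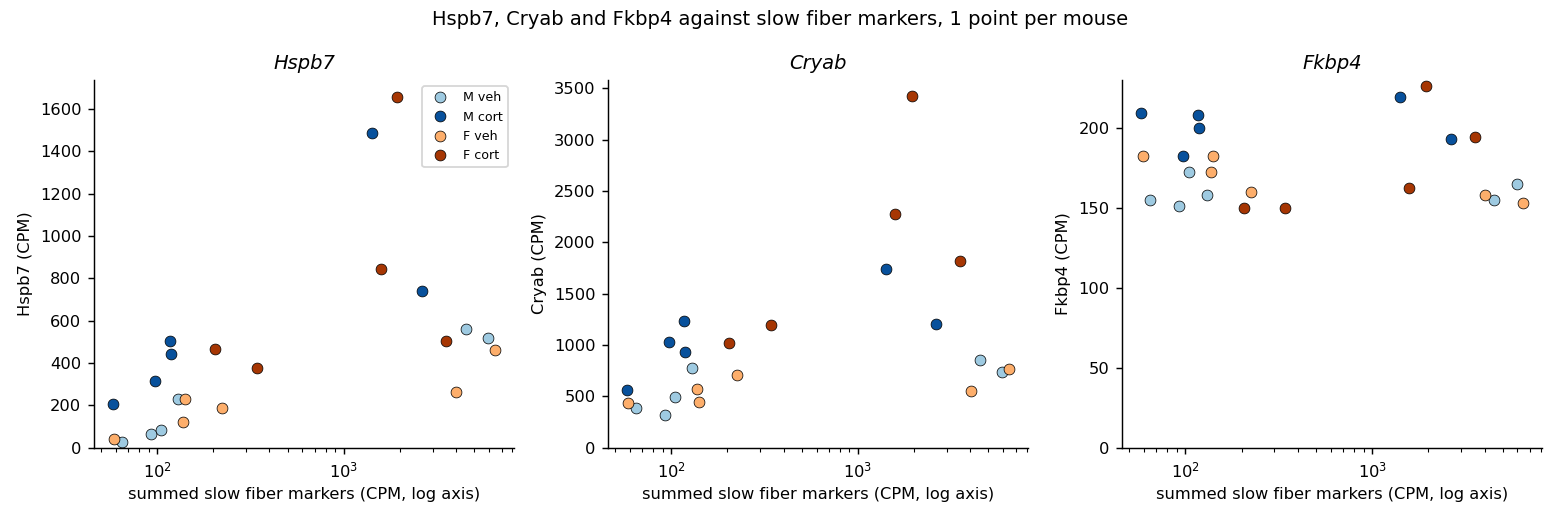
CPM of Hspb7, Cryab and Fkbp4 (y axes, from 0) against the summed CPM of 8 slow fiber markers (x axis, log scale), with 1 point per mouse coloured by sex and treatment. Hspb7 and Cryab of corticosterone-treated mice mostly lie above those of vehicle-treated mice with like marker levels, while Fkbp4, with a correlation of 0.05, spreads across the marker range.

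Fkbp4 encodes FKBP52, an immunophilin that joins the GR-HSP90 complex when hormone binds. Fkbp4 (ENSMUSG00000030357, chr6:128429735-128438677, minus strand) ranged from 151 to 172 CPM in males with vehicle, with a median of 156, and from 182 to 219 CPM in males with corticosterone, with a median of 204, and the groups did not overlap. The rise was 1.27-fold (log2FC 0.34, SE 0.09, edgeR adjusted p = 0.00411), and leaving out M1 or M10 moved the adjusted p to 0.0106 or 0.0109. Summed fibroblast markers were 946 to 1494 CPM in the males with corticosterone and 1638 to 2472 CPM in those with vehicle, and these did not overlap either. Over the 23 mice, with group means subtracted, Fkbp4 had correlations of -0.70 with fibroblast, -0.58 with adipocyte and -0.53 with macrophage markers (a description). The male call of Fkbp4 was kept with the adipocyte score of each mouse as a covariate. The part of the fibroblast and macrophage markers in the result was not tested. Females ranged from 153 to 182 CPM with vehicle, and measured 194 (F2), 150 (F4), 150 (F6), 226 (F8) and 162 CPM (F10) with corticosterone. Treated females thus lay both above and below the vehicle range, with a log2FC of 0.07 (SE 0.09, edgeR adjusted p = 0.605).

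Stip1 and Ptges3 did not pass the threshold in either sex. Stip1 (HOP, ENSMUSG00000024966, chr19:7020702-7039967, minus strand), the adaptor between HSP70 and HSP90, measured 164 (F2), 94.2 (F4), 136 (F6), 208 (F8) and 157 CPM (F10) in corticosterone-treated females, against 100 to 130 CPM with vehicle. F4 lay below and the other 4 above every vehicle-treated female. The female log2FC was 0.36 (SE 0.13, edgeR adjusted p = 0.0439), and without F4 it was 0.50 (edgeR adjusted p = 0.00114). In males Stip1 ranged from 101 to 130 CPM with vehicle and from 111 to 138 CPM with corticosterone (log2FC 0.15, SE 0.13, edgeR adjusted p = 0.367).

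Ptges3 (p23, ENSMUSG00000071072, chr10:128058954-128077272, plus strand) stabilises the closed form of HSP90 that holds GR. It ranged from 48.9 to 64.4 CPM in vehicle-treated males and from 54.0 to 84.6 CPM (M8) in corticosterone-treated males (log2FC 0.14, SE 0.11, edgeR adjusted p = 0.308). Females ranged from 50.9 to 72.5 CPM with vehicle and from 53.1 to 63.8 CPM with corticosterone (log2FC -0.06, SE 0.11, edgeR adjusted p = 0.742). In both sexes the groups overlapped, and 2 SE on either side of the change span 0.951-fold to 1.28-fold in males and 0.824-fold to 1.12-fold in females.

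**Figure D4:**
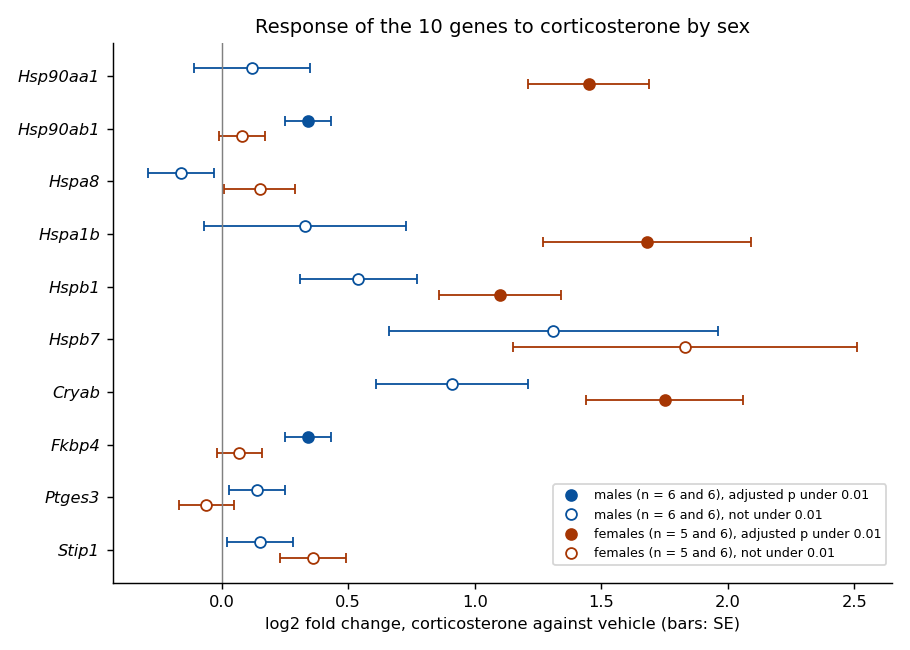
Log2 fold change after corticosterone (x axis) of the 10 genes (y axis) in males and females, with the SE as bars and filled points for an adjusted p under 0.01. The female values of Hsp90aa1, Hspa1b, Hspb1 and Cryab lie between 1.10 and 1.75, and the male values of Hsp90ab1 and Fkbp4 at 0.34.

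Corticosterone-treated females differed from each other along several of these genes at once. F8 was the highest of the 5 for 7 of the 10 genes, and F4 was the lowest for 6, Hsp90aa1, Hspa8, Hspa1b, Cryab, Fkbp4 and Stip1. In F4, Cryab, Hspb1 and Hspb7 still lay above every vehicle-treated female. Fkbp5, an established GR target that encodes FKBP51, was at 207 CPM in F4 and ranged from 149 (F10) to 278 CPM (F2) in the other treated females, against 12.5 to 48.4 CPM in vehicle-treated females. F4 thus had a low Hsp90aa1 beside an Fkbp5 level within the range of the other treated females.

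Whether the responses of the sexes differed was tested by the interaction of sex and treatment. At an adjusted p under 0.01, none of the 10 genes passed in edgeR (0.690% of all tested genes did), 3 had an unadjusted p under 0.05 (Hsp90aa1, Hspa1b and Fkbp4), and DESeq2 and limma-voom each called 1. These tools called more interactions over all 13049 genes, 422 above and 474 below 0 in DESeq2 and 188 and 505 in limma-voom. The gene they called was Hsp90aa1, with an interaction of -1.34 on the log2 scale (SE 0.34, male minus female response) and an edgeR adjusted p of 0.0199. The adjusted p was 0.00313 in DESeq2, 0.0049 in limma-voom and 0.00242 in edgeR without F4. These were the only 3 of 33 alternatives that called it. Without F10 the interaction was -1.19 (edgeR adjusted p = 0.0488). For Hsp90ab1 and Fkbp4, called in males only, the interaction was 0.26 (SE 0.13, edgeR adjusted p = 0.161) and 0.27 (SE 0.13, edgeR adjusted p = 0.15), so that a difference between the sexes was not shown. For Cryab, Hspa1b and Hspb1 it was -0.84, -1.35 and -0.56 (edgeR adjusted p = 0.177, 0.111 and 0.244).

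The sexes were also compared directly. With vehicle, none of the 10 genes passed in edgeR, DESeq2 or limma-voom, none had an unadjusted p under 0.05 in edgeR, and 0.958% of all tested genes passed in edgeR. With corticosterone, Hsp90aa1 was lower in males than in females (log2FC -1.14, SE 0.24, edgeR adjusted p = 0.00125), as was Hspa8 (log2FC -0.48, SE 0.14, edgeR adjusted p = 0.00909), and none of the 10 was higher in edgeR with all mice. DESeq2 called Hsp90ab1 higher in males (log2FC 0.29, adjusted p = 0.00323) and Hspa1b lower (log2FC -1.32, adjusted p = 0.00545), and Fkbp4 passed in edgeR without F8 (log2FC 0.30, adjusted p = 0.00587). Among all tested genes, 14% were lower and 9.31% higher in corticosterone-treated males in edgeR. DESeq2 called 2116 of 13049 lower and 1727 higher. The call of Hspa8 was lost when any of 16 single mice was left out, with log2FC values of -0.36 to -0.51. The call of Hsp90aa1 was lost without both M8 and F10 (log2FC -0.97, edgeR adjusted p = 0.0136) and without both F6 and F10 (log2FC -1.01, edgeR adjusted p = 0.0206). Whether samples of the sexes were processed together is not given in the sources used here, so that sex and such a batch cannot be told apart in these comparisons.

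Per kilobase of exon, the order of the 10 genes was the same in the vehicle groups of both sexes. The share of 100-base stretches that also occur in other genes was 49.9% for Hspa1b, 44% for Hspb1 and 38% for Hsp90aa1. It was 28.5% for Hspa8, 17.3% for Ptges3, 9.92% for Cryab and 3.24% for Stip1, and 0 for Hsp90ab1, Hspb7 and Fkbp4. Part of the read pairs of genes with shared stretches may not have been counted, so close ranks are uncertain. For Cryab the only sharing gene was Hspb2, which overlaps it on the opposite strand, and the authors counted pairs by strand. Cryab (401 ± 151 CPM per kilobase in males, SD, n = 6) and Hsp90ab1 (382 ± 26.9) stood first and did not differ beyond their spread, followed by Hspa8 (250 ± 3.86). Hspb1 (114 ± 15.2) and Hspb7 (89.3 ± 85.5) came next and were within the spread of Hspb7. Fkbp4 (57.0 ± 2.84) and Stip1 (53.1 ± 5.01) lay close together, above Ptges3 (25.8 ± 2.89), Hsp90aa1 (16.3 ± 3.05) and Hspa1b (0.799 ± 0.277). In corticosterone-treated females Cryab reached 1317 ± 653 (SD, n = 5), and Hsp90aa1 (39.0 ± 15.6) stood above Ptges3 (26.5 ± 1.92), with F4 as the exception in Hsp90aa1.

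The wider chaperone network was described by lists of 76 other genes, of which 73 were tested. In males 7 were higher and 4 lower after corticosterone, and in females 8 were higher and 3 lower. Among all tested genes, 13.2% were higher and 13.1% lower in males, and 7.40% were higher and 6.0% lower in females. The male counts over the 73 genes thus lay below these shares in both directions. In females the count of lower genes lay below its share, and the count of higher genes above it, though not far. Counts in the single lists below stand beside the same shares. The median log2FC of the 73 genes was 0.03 in males and 0.04 in females. Among 15 other HSP90 co-chaperones, Fkbp5 rose in males (log2FC 3.36, SE 0.30, edgeR adjusted p = 6.74e-08) and in females (log2FC 3.05, SE 0.30, edgeR adjusted p = 1.77e-06). Sgta, which guides tail-anchored proteins, rose in males (log2FC 0.38, SE 0.08, edgeR adjusted p = 0.000462), as did the phosphatase gene Ppp5c (0.31). Unc45a, a myosin chaperone, rose in females (log2FC 0.41, SE 0.10, edgeR adjusted p = 0.00419), and had a log2FC of 0.32 in males (edgeR adjusted p = 0.0102). Its female call was lost in 9 of 33 alternatives, among them each sex fitted alone (0.047), the adipocyte covariate (0.0415) and leaving out F6 and F10 (0.0556). Dnajc7, a co-chaperone of both HSP70 and HSP90, fell in females (log2FC -0.36, SE 0.08, edgeR adjusted p = 0.00229), and its call was lost in 4 of 33 alternatives.

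Among 18 other genes of the HSP70 family and its partners, 6 rose in females and none in males, where 6 had an unadjusted p under 0.05 in either direction. For the interaction of sex and treatment, 0 of 18 passed in edgeR, 6 had an unadjusted p under 0.05, and DESeq2 and limma-voom each called 1, so that a difference between the sexes was not shown for this list. Hspa1a, the neighbour of Hspa1b, measured 33.5 (F2), 5.15 (F4), 8.93 (F6), 28.8 (F8) and 16.1 CPM (F10), against 1.42 to 9.57 CPM in vehicle-treated females (log2FC 2.14, SE 0.49, edgeR adjusted p = 0.00337). F4 was again the lowest of the treated females, and lay with F6 within the vehicle range. The call of Hspa1a was lost in 4 of 33 alternatives, among them leaving out F2 (log2FC 1.81, edgeR adjusted p = 0.0145) and each sex fitted alone (0.0305). Hspa12a, an atypical member of the family, measured 28.9 (F2), 9.59 (F4), 45.5 (F6), 9.60 (F8) and 30.4 CPM (F10), against 6.34 to 12.4 CPM (log2FC 1.46, SE 0.32, edgeR adjusted p = 0.0023). Its 3 high mice, F2, F6 and F10, are those with 3542 to 7431 CPM of adipocyte markers, and without F6 and F10 its log2FC was 0.82 (edgeR adjusted p = 0.0928). It also lost its call without F6 alone (log2FC 1.11, edgeR adjusted p = 0.0151). The 4 others that rose in females were Hspa1l, St13, Hsph1 and Bag3, whose calls were lost in 26, 9, 13 and 17 of 33 alternatives. Bag2, an inhibitor of the ubiquitin ligase CHIP, fell in males (log2FC -1.21, SE 0.16, edgeR adjusted p = 7.93e-06) and in females (log2FC -0.91, SE 0.17, edgeR adjusted p = 0.000719), where the call was lost without F6 and F10 (log2FC -0.72, edgeR adjusted p = 0.0132). Hspa12b also fell in males (log2FC -0.46, SE 0.13, edgeR adjusted p = 0.00927), a call lost in 21 of 33 alternatives.

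HSP40 proteins deliver clients to HSP70. Of 15 such genes, Dnajb12 rose in males from 60.1 to 74.9 CPM with vehicle to 97.8 to 138 CPM with corticosterone (log2FC 0.76, SE 0.10, edgeR adjusted p = 8.6e-06). In females it had a log2FC of 0.00 (SE 0.11), and its interaction passed the threshold (0.76, SE 0.15, edgeR adjusted p = 0.00874). Interaction calls over all tested genes depended strongly on single mice. With all mice 48 were above and 42 below 0, beside 1 and 0 without M3 or with the adipocyte covariate, and 236 and 659 without F8. How the interaction of Dnajb12 fared in the alternatives is not given here. Dnajb14 fell in males (log2FC -0.58, SE 0.14, edgeR adjusted p = 0.00185). No HSP40 gene passed in females in edgeR, where 5 had an unadjusted p under 0.05 and DESeq2 and limma-voom each called 1. Of all 13049 genes in females, DESeq2 called 1333 higher and 1125 lower, and limma-voom 1424 and 1030.

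Of 4 heat shock factor genes tested, 2 rose in males. Hsf1, the main activator of inducible chaperones, ranged from 42.5 to 60.3 CPM in vehicle-treated males and from 75.8 to 96.2 CPM in corticosterone-treated males (log2FC 0.67, SE 0.10, edgeR adjusted p = 2.25e-05), and its log2FC in females was 0.27 (SE 0.10, edgeR adjusted p = 0.0613). Hsf4 rose in males (log2FC 0.55, SE 0.15, edgeR adjusted p = 0.00668), a call lost in 9 of 33 alternatives, 7 of them single mice left out (edgeR adjusted p of 0.0126 to 0.0209). The interaction of Hsf1 was 0.40 (SE 0.14, edgeR adjusted p = 0.0645). Of 4 other small heat shock proteins tested, Hspb8 fell in males (log2FC -0.64, SE 0.17, edgeR adjusted p = 0.00463), unlike Cryab, Hspb1 and Hspb7, whose values lay above 0. The call of Hspb8 was lost in 8 of 33 alternatives, 6 of them single mice left out (edgeR adjusted p of 0.0108 to 0.0153). Of 8 chaperonin subunits, Cct2 rose in males (log2FC 0.30, SE 0.08, edgeR adjusted p = 0.00531), and lost its call in 8 of 33 alternatives, 6 of them single mice left out (edgeR adjusted p of 0.0103 to 0.0177). None of 8 mitochondrial chaperones passed in either sex in edgeR, DESeq2 or limma-voom, and 1 had an unadjusted p under 0.05 in females and 0 in males.

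Nr3c1, which encodes GR itself, ranged from 71.5 to 124 CPM in vehicle-treated females and measured 64.8 (F2), 81.2 (F4), 71.9 (F6), 54.2 (F8) and 63.9 CPM (F10) with corticosterone (log2FC -0.54, SE 0.13, edgeR adjusted p = 0.00442). The call was lost in 7 of 33 alternatives, among them each sex fitted alone (0.0202), the adipocyte covariate (0.0426), F6 and F10 left out (0.0308) and F7, F2 or F8 left out (0.0137, 0.0134 and 0.0108). F4, the mouse with the lowest Hsp90aa1 of the treated females, had their highest Nr3c1, and F8 had the lowest. In males the log2FC of Nr3c1 was -0.07 (SE 0.12, edgeR adjusted p = 0.688).

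**Figure D5:**
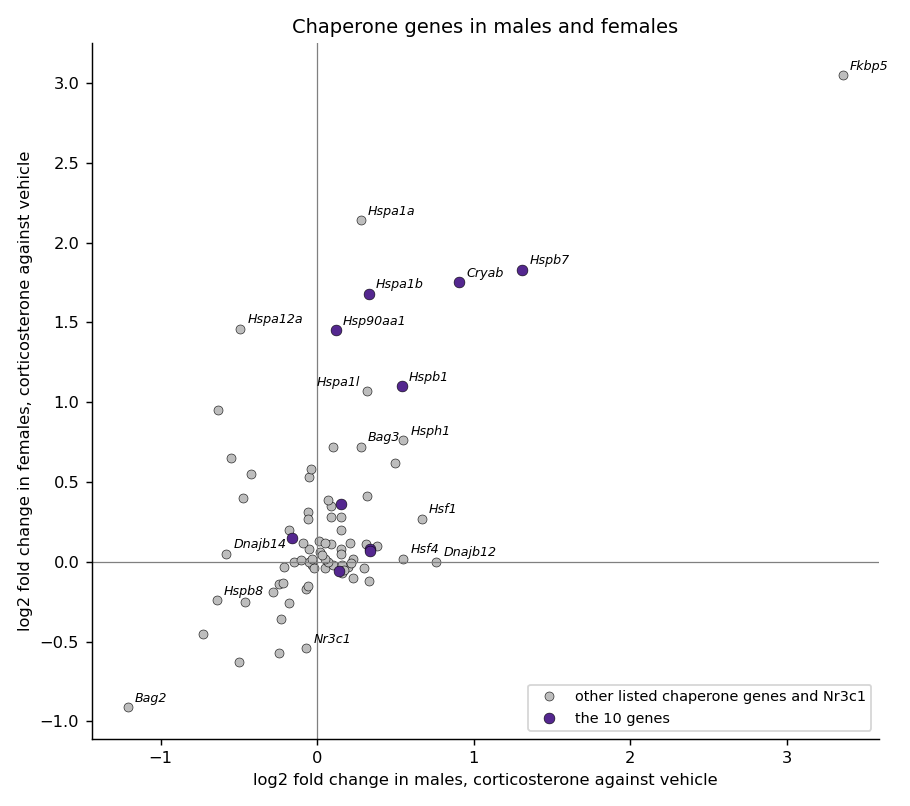
Log2 fold change after corticosterone in males (x axis) and in females (y axis) of the 10 genes, of the other listed chaperone genes tested and of Nr3c1, with 1 point per gene. Fkbp5 lies above 3 on both axes, Hspa1a, Hspa1b, Hspa12a and Hsp90aa1 lie high on the female axis, and Dnajb12 (0.76) and Hsf1 (0.67) lie to the right on the male axis. Hspb7 (1.31 in males, 1.83 in females) and Cryab (0.91, 1.75) lie further right and high on both axes.

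The genes most like each of the 10 were taken by the Pearson correlation of log2 CPM over the 23 mice after the mean of each group was subtracted, as a description. For Stip1 the closest were Ahsa1 (0.90), Cacybp (0.88) and Hsph1 (0.87), and for Fkbp4 the closest was Ppp5c (0.87). Hsp90aa1 was closest to Hspa4l (0.82) and to Manf (0.82) and Sdf2l1 (0.81), which encode proteins of the endoplasmic reticulum. Hspb7 was closest to the Z-disc and filament genes Actn2 (0.96) and Lmod2 (0.95), Hspa1b to Hspa1a (0.85), Cryab to Evc (0.94), Hspb1 to Rcan1 (0.89), Hsp90ab1 to Dnajb2 (0.90), Ptges3 to Cebpz (0.91) and Hspa8 to the processed pseudogene Gm15459 (0.83), with which it shares sequence. Of the 30 genes found in this way, 7 were in the chaperone lists. Among the 10 genes themselves, 13 of 45 pairs had a correlation over 0.5, led by Hsp90ab1 with Ptges3 (0.82), Hspb7 with Cryab (0.80) and Hspb1 with Cryab (0.77), while Hsp90aa1 had 0.72 with Stip1.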

How the data were processed

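Stranded mRNA libraries of quadriceps were sequenced as read pairs of 100 bases. Per the labels and the methods, the authors aligned them to mm10 with STAR 2.7.3a and counted pairs falling on 1 gene, by strand, with HTSeq 0.12.4, and deposited raw counts per gene and mouse. The 5 summary entries held 10.7% to 15.3% of read pairs and were left out. GENCODE M21 (GRCm38) named 55480 of 55573 gene IDs. No mouse pair within a group agreed within sampling noise (lowest chi-square per degree of freedom 13.2).

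Counts were tested in R 4.3.3 with edgeR 4.0.16 (TMM factors 0.832 to 1.21, quasi-likelihood test, 4 group means, all 23 mice). As in the study, a gene was kept if 4 or more mice of 1 group had more than 20 normalized counts (13049 genes), and p-values were adjusted by Benjamini-Hochberg (threshold 0.01). DESeq2 1.42.0, limma 3.58.1 (voom with quality weights), other filters and scaling, each sex alone, single mice left out, a replicate block and covariates were alternatives. The adipocyte covariate and leaving out F6 and F10 were chosen after seeing the data. Correlations used log2 CPM with a prior count of 1. P-values set a difference against the spread between mice within groups, which was estimated over all 4 groups together except where each sex was fitted alone.

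The 10 genes and all lists were chosen with earlier results of these data known. All 10 genes are named, as are up to 3 genes past the threshold with the largest change per list, Nr3c1, Fkbp5 and the 3 genes most like each of the 10, of which some are given. Ppp5c, Dnajc7, Hspa12b, Hspa1l, St13, Hsph1 and Bag3 were named in the lists after their values were seen. Summed markers of endothelial cells (255 to 616 CPM), fibroblasts (946 to 2944 CPM) and macrophages (83.1 to 443 CPM) were also computed.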

Additional observations from a re-analysis of the deposited data

Results flagged for a closer look

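Hspb1 in corticosterone-treated males was flagged because 1 mouse stood apart from the other 5. M10 measured 350 CPM, and the gap to the next mouse was 0.831 of the whole range of the group (n = 6). Of 40 combinations of gene and group examined in this way, 1 was flagged, where chance alone flags about 1 in 20. M10 was also the highest corticosterone-treated male for Hsp90aa1, Hspa8, Hspb7, Cryab and Fkbp4, and its slow fiber markers summed to 1410 CPM. Without M10, Hspb1 was lower in corticosterone-treated males than in corticosterone-treated females (log2FC -0.75, edgeR adjusted p = 0.00232), where with all mice it was not called (log2FC -0.42, edgeR adjusted p = 0.171).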

How the results depend on the processing

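The 50 log2 fold changes (10 genes, 5 comparisons) were recomputed in 1650 alternatives, of which 1555 kept direction and side of the threshold, 42 lost a call, 18 gained one and 35 turned in sign, none of them among called changes. The female calls of Hsp90aa1, Cryab and Hspb1 held in all 33 alternatives. Of the 10 genes, the number called in males (2) was 0 without a filter and 0 if an absolute log2FC over 1 was also asked for, 1 without M8 and F10, 4 with the slow fiber covariate and 1 to 2 with single mice left out (1 without M1, M3 or M10). The number for the interaction (0) was 1 in DESeq2, in limma-voom and at an adjusted p under 0.05, and 0 to 1 with single mice left out (1 without F4). The number for males against females with corticosterone (2) was 4 in DESeq2, 1 with the median of ratios, with filterByExpr, without a filter, with the slow fiber covariate and with the log2FC limit, 0 without M8 and F10, 0 without F6 and F10, 5 at an adjusted p under 0.05 and 1 to 4 with single mice left out (4 without F4). The female count and the vehicle count stayed within 1.5 times. The causes were not tested.

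Signs turned only in uncalled values. In the slow fiber fit these were Ptges3 in females (0.00), Hspb7 in the interaction (0.42), between sexes with corticosterone (0.37) and with vehicle (-0.06), and Hsp90ab1 between sexes with vehicle (-0.01). In limma-voom they were Hspb7 in the interaction (0.18) and Hspb7 (-0.27) and Cryab (-0.01) between sexes with vehicle. With single mice left out, the lowest and highest values were -0.01 and 0.21 for Hsp90aa1 in males, -0.03 and 0.13 for Fkbp4 in females, and between sexes with vehicle -0.02 and 0.05 for Hsp90ab1, -0.14 and 0.45 for Hspa1b, -0.23 and 0.55 for Hspb7 and -0.09 and 0.17 for Cryab. Between sexes with corticosterone they were -0.80 and 0.16 for Hspb7 and -0.00 and 0.14 for Ptges3.

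The groups with corticosterone and with vehicle share no replicate number, so no paired fit of the treatment was possible. Between the sexes, 7 of 11 same-numbered pairs had deviations correlated over 0.1, and 4 of 11 females were closest to their own number. The correlations were 0.085 to 0.477 with vehicle and -0.377 to 0.242 with corticosterone. The numbers were not taken as pairs in the main fit, and whether they mark a shared order or batch was not tested. With the replicate block, males against females with corticosterone had 1 of the 10 genes called, and Hspb7 in the interaction (0.05) and Hspb7 (-0.20) and Cryab (-0.02) between sexes with vehicle turned in sign.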
